A study of Cucurbita moschata with 6 samples.

Results

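Sugar transporters are the membrane proteins that carry sucrose, hexoses and sugar alcohols across the plasma membrane and the vacuolar membrane (tonoplast). Their messenger RNA was measured here in pumpkin (Cucurbita moschata) seedlings, in the hypocotyl, which is the young stem between root and cotyledons. The genes were chosen by product name in the deposited gene table: any product naming SWEET, sugar or sucrose transport, hexose carriers or transporters, polyol transporters, ERD6 or monosaccharides. This gave 81 of 32205 genes, and no measured value entered the choice. One of them, protein SWEETIE, matched by its letters and is not known as a transporter, which leaves 80 transporters.

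The 6 libraries of poly(A) RNA form 2 groups of 3, named SR and SCK in the labels, which do not spell these names out. The series concerns far-red light and hypocotyl elongation and has 1 treated and 1 control group. SCK is read here as the control because CK is a customary mark of a control in agronomy, and SR as the treated group. All 6 libraries come from hypocotyls at the stage of unfolded cotyledons, and all carry the same treatment label, a short exposure to far-red light, so the labels alone do not say what differed. No label names the cultivar, the number of plants per library or whether replicates came from separate plants. The p-values therefore measure only how these samples vary among themselves, and that variation may be technical.

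In plants, sucrose made in green tissue travels in the phloem to growing organs. SWEET proteins let sugars pass a membrane in both directions along their gradient, and Arabidopsis SWEET11 and SWEET12 release sucrose for phloem loading. Sucrose transporters (SUC), sugar transport proteins (STP) and polyol transporters couple uptake to protons. Monosaccharide-sensing proteins, also called tonoplast monosaccharide transporters, fill the vacuole with sugar, and several ERD6-like proteins let it out. Cucurbits also move raffinose and stachyose, which are made from sucrose in the phloem.

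Deposited counts summed to between 63870714 and 72356397 in SR libraries and between 52300725 and 67350441 in SCK libraries. Levels below are deposited FPKM, fragments scaled to transcript length and to library size, as mean ± SD (n = 3). Fold changes are log2 values of SR over SCK ± SE from edgeR's quasi-likelihood test with TMM scaling, and a gene is called at a Benjamini-Hochberg adjusted p under 0.05 over all 23509 tested genes. Genes were tested when at least 3 libraries reached 1 FPKM. Across all tested genes the median log2 change came to 0.01, and to 0.14 when TMM factors were left out. Deposited FPKM carries no TMM scaling, so a ratio of the printed levels is slightly higher than the fitted fold change.

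One SCK library decided the edgeR calls. FPKM differed at least 2-fold between SCK replicates 1 and 2 in 2760 tested genes, and in 2384 of them SCK replicate 3 had an intermediate value. Genes picked for a wide gap leave much room for an intermediate value, so this count alone does not bear on independence. Without that choice, in counts with TMM scaling, SCK replicate 3 was intermediate in 13275 of all 23509 tested genes. Such counts were not made for other libraries. SCK replicates 2 and 3 were also the most alike pair of a group, with a chi-square per gene of 7.95 between their counts, against 28.8 to 57.1 in the other 5 pairs. Whether SCK replicate 3 is an independent sample was not tested; if it is not, n = 3, the SDs and the p-values overstate the precision for SCK. Without SCK replicate 3, edgeR called 0 of the 23509 genes, although 5558 had an unadjusted p under 0.05. DESeq2 called 3607 genes without that library, and limma called 8. Each edgeR call below is therefore lost without it, and for each called transporter gene the fold change without it stands in the same paragraph. Tissue markers also moved, and their calls are read against shares of 7.2% rises and 7.16% falls among all tested genes. In lists of few tested genes no excess is read from 1 or 2 calls. Summed FPKM of 29 antenna and small-subunit Rubisco genes, taken as markers of green cotyledon tissue, ran from 7938 to 9835 in SR and from 9754 to 16183 in SCK, and 10 of 26 tested fell. Summed FPKM of 20 xylem genes ran from 85.2 to 132 in SR and from 64.9 to 77.0 in SCK. That of the 29 genes of a phloem list ran from 3770 to 6548 in SR and from 4089 to 4314 in SCK. By the letters PP2 this list also held genes named for protein phosphatases, which are no phloem markers. Among them were CmoCh15G003130, CmoCh04G028690 and CmoCh06G000190, with SR means of 29.0, 16.8 and 6.39 FPKM, and none of these was called. On these lists 2 of 11 tested xylem genes and 6 of 27 tested genes of the phloem list rose. Among the phloem rises, CmoCh08G010800 passed the filter only through SR, so it had to be higher in SR. Of 18 shoot meristem genes, summing to between 248 and 376 FPKM in SR and between 150 and 250 FPKM in SCK, 1 of 8 tested rose. Of 12 heat shock and wound genes, summing to between 150 and 173 FPKM in SR and between 102 and 128 FPKM in SCK, 2 of 9 tested rose. The 4 casparian strip genes taken as root markers summed to at most 1.39 FPKM in any library. The part of tissue make-up in the results below was not tested, and in whole hypocotyls fewer cells of a type and less RNA per cell cannot be told apart.

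Of the 81 genes, 44 were tested, 14 had a count of 0 in every library, and the other 23 stayed low, at no more than 2.35 FPKM in any library. Among the 44 tested, 8 were called: 2 rose and 6 fell. The share of calls among all tested genes was 14.4%, with 7.2% rises and 7.16% falls, against 18.2% of the tested transporter genes, with 4.55% rises and 13.6% falls. With 8 calls these shares lie close to the background, and no excess of calls is read from them. DESeq2 called 14 of the 44, with 4 rises and 10 falls, where it called 25.6% of all tested genes, with 13% rises and 12.7% falls. Limma called 9, with 2 rises and 7 falls, against 14.8% of all tested genes, with 10.1% rises and 4.63% falls. Without SCK replicate 3, DESeq2 called 8, with 1 rise and 7 falls, against 15.3% of all tested genes, with 7.57% rises and 7.77% falls. These included 7 of the 8 genes that edgeR called with all libraries, the exception being CmoCh20G007070. Over all tested genes 11455 of 23509 log2 changes were negative. The median log2 change was -0.29 over the 44 genes, of which 30 were negative. One of these, CmoCh11G013140, passed the filter only through SCK, and without it 29 of 43 were negative, with a median of -0.28. In FPKM the groups did not overlap in 16 of the 44 genes, against 40.6% of all tested genes. All SR values lay below all SCK values in 10 and above them in 6, where all tested genes gave 12.7% below and 27.9% above.

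**Figure D1:**
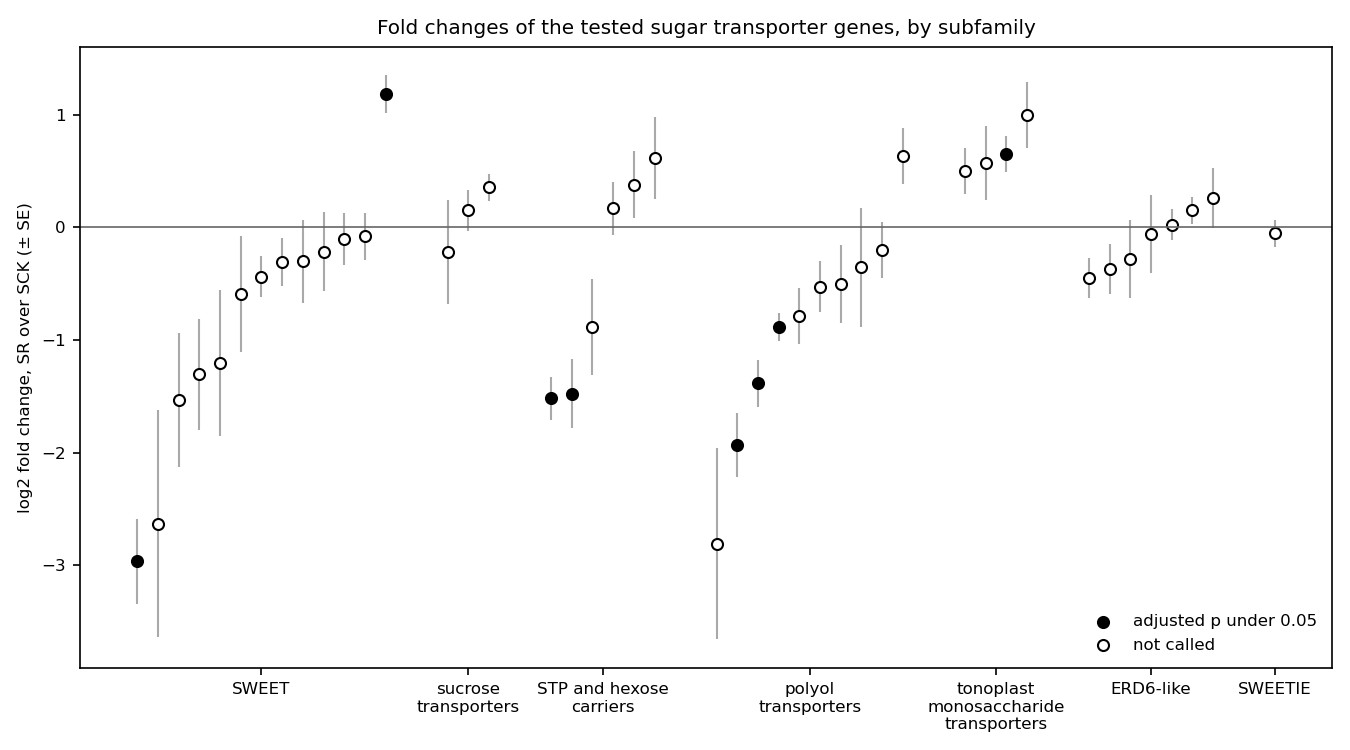
Log2 fold change of SR over SCK (vertical axis, ± SE) for each of the 44 tested genes, grouped by subfamily and ordered by size within it. Filled points are the 8 called genes. All 4 tonoplast monosaccharide transporters lie above 0, and 12 of 13 SWEET genes and 9 of 10 polyol transporters lie below it, among the polyol transporters 1 that passed the filter only through SCK.

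SWEET facilitators were the largest subfamily and gave most of the transcript. Of 31 genes 13 were tested, and 1 rose and 1 fell, against 7.2% rises and 7.16% falls among all tested genes. SWEET2 (CmoCh09G006590, chromosome 9, 3306201 to 3308135 in the deposited table) stood at 1.74, 0.930 and 0.775 FPKM in SR replicates 1, 2 and 3, against 9.50, 7.75 and 7.43 FPKM in SCK replicates 1, 2 and 3. Every SR value was well under every SCK value. In Arabidopsis, SWEET2 is a tonoplast protein that moves glucose. It fell by 2.97 ± 0.38 on the log2 scale (edgeR, adjusted p = 0.0118). Without SCK replicate 3 its log2 change was -3.04 (adjusted p = 0.0749), and over all alternatives its adjusted p ran from 1.35e-12 to 0.0830. DESeq2 and limma with all libraries called the fall as well.

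A SWEET3b-like gene (CmoCh15G010990, chromosome 15, 7363143 to 7366192) was the only one of the 13 with a positive fold change. It stood at 31.0, 37.7 and 41.8 FPKM in SR replicates 1, 2 and 3, against 11.7, 16.9 and 15.8 FPKM in SCK replicates 1, 2 and 3. The groups did not overlap. It rose by 1.18 ± 0.17 (edgeR, adjusted p = 0.0134), and without SCK replicate 3 its log2 change was 1.22 (adjusted p = 0.0764; 6.42e-08 to 0.0830 over all alternatives). The gene closest to SWEET2 in name, SWEET2-like (CmoCh01G013260, named after its values were seen), was at 2.19 ± 0.210 FPKM in SR and 2.46 ± 0.247 FPKM in SCK, with adjusted p = 0.349. Whether the fold changes of SWEET2 and SWEET2-like differ was not tested.

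**Figure D2:**
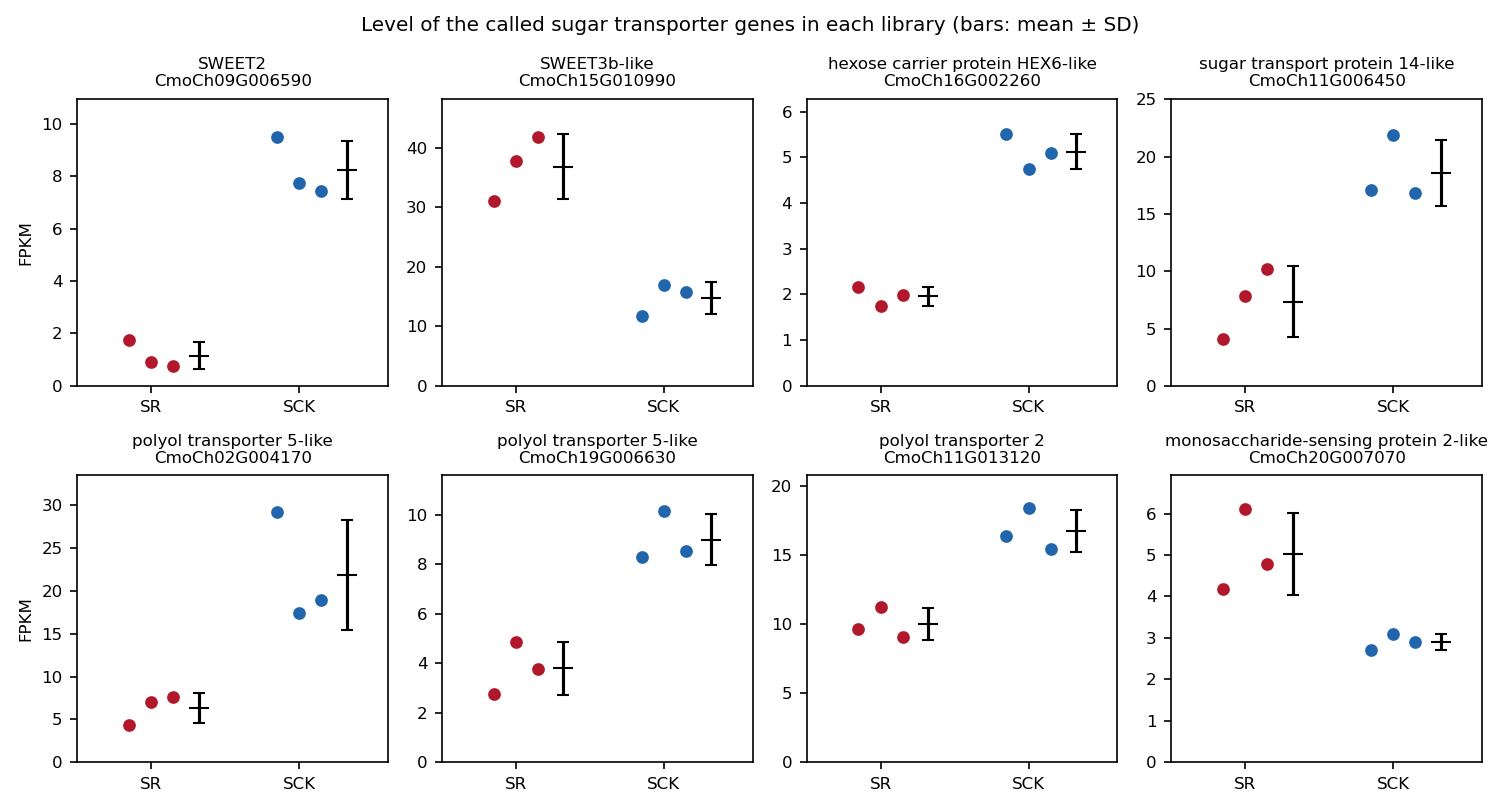
FPKM of the 8 called genes (vertical axis, one panel each) in SR and SCK libraries. Points are libraries in the order of replicates 1, 2 and 3, and bars are the mean ± SD of 3 libraries. In each panel the SR and SCK points do not overlap; SWEET3b-like and the monosaccharide-sensing protein 2-like gene are higher in SR and the other 6 are lower.

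SWEET12-like on chromosome 18 (CmoCh18G002340, 1527600 to 1530120) was the most abundant sugar transporter gene in every library but SR replicate 3, where SWEET7-like was higher. It made up 27.0%, 38.3% and 12.0% of the summed FPKM of the 81 genes in SR replicates 1, 2 and 3, against 46.8%, 35.2% and 40.9% in SCK replicates 1, 2 and 3. Its level was 173, 277 and 59.6 FPKM in SR replicates 1, 2 and 3, against 439, 312 and 382 FPKM in SCK replicates 1, 2 and 3. All SR values were below all SCK values, but SR replicates spread widely. The log2 change was -1.31 ± 0.49 and did not pass (edgeR, adjusted p = 0.116; DESeq2, adjusted p = 0.0195; limma, adjusted p = 0.110). Over all alternatives its adjusted p ran from 0.0195 to 0.241.

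A SWEET12-like gene on chromosome 13 (CmoCh13G008560, 7847191 to 7848790) had the same order of libraries. It stood at 7.51, 38.3 and 1.57 FPKM in SR replicates 1, 2 and 3, against 128, 49.6 and 80.8 FPKM in SCK replicates 1, 2 and 3. In both SWEET12-like genes SR replicate 3 was lowest and SCK replicate 1 highest, with SR replicates 1 and 2 and SCK replicates 2 and 3 between them in that order. Its log2 change of -2.63 ± 1.01 did not pass (edgeR, adjusted p = 0.120). Without SR replicate 2, the highest SR library, it was -4.35 (adjusted p = 0.0389), and over all alternatives the adjusted p ran from 0.0389 to 0.235. The green tissue markers summed to 9835, 7938 and 8110 FPKM in SR replicates 1, 2 and 3, against 16183, 9754 and 12315 FPKM in SCK replicates 1, 2 and 3. Their sum was highest in SCK replicate 1, as both SWEET12-like genes were, and lowest in SR replicate 2, where both genes had their highest SR level. The part of tissue make-up in the levels of these genes was not tested. The neighbouring SWEET12-like gene (CmoCh13G008550) was at 18.8 ± 2.86 FPKM in SR and 23.2 ± 5.18 FPKM in SCK, with overlapping groups (adjusted p = 0.143), and the one on chromosome 10 (CmoCh10G000340) was at 2.76 ± 0.0567 FPKM in SR and 2.70 ± 0.430 FPKM in SCK. Both were named after their values were seen.

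SWEET16 proteins of Arabidopsis sit in the tonoplast. A pair of neighbouring SWEET16 genes on chromosome 6 spread widely within both groups. The first (CmoCh06G015060) had 11.9, 4.44 and 4.31 FPKM in SR replicates 1, 2 and 3, against 4.32, 21.0 and 19.1 FPKM in SCK replicates 1, 2 and 3. The second (CmoCh06G015070) had 3.28, 0.911 and 1.57 FPKM in SR replicates 1, 2 and 3, against 2.31, 6.67 and 6.67 FPKM in SCK replicates 1, 2 and 3. In both, SCK replicate 1 lay below SR replicate 1, so the groups overlapped. Their log2 changes of -1.21 ± 0.65 and -1.53 ± 0.59 did not pass in edgeR (adjusted p = 0.240 and 0.124), while DESeq2 gave the second gene adjusted p = 0.0451, in a range of 0.0451 to 0.315 over all alternatives. Single libraries moved both: without SR replicate 1 the log2 changes were -1.91 and -2.21 (adjusted p = 0.103 and 0.0553), and without SCK replicate 2 they were -0.88 and -1.34 (adjusted p = 0.455 and 0.240).

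SWEET7-like (CmoCh16G005760), the second most abundant SWEET gene, had 146, 75.2 and 67.4 FPKM in SR replicates 1, 2 and 3, against 69.3, 142 and 118 FPKM in SCK replicates 1, 2 and 3. Each group held a high and a low end, and the log2 change was -0.30 ± 0.37 (edgeR, adjusted p = 0.607), running from -0.78 to -0.09 when single libraries were left out. Such differences inside SCK were not confined to this gene. Between SCK replicates 1 and 2, 10 of the 44 tested transporter genes (22.7%) differed at least 2-fold in FPKM, against 11.7% of all tested genes. In 9 of the 10, among them both SWEET16 genes, SWEET7-like, SUC4 and sugar transport protein 13-like, SCK replicate 1 was the lower, and the exception was SWEET12-like on chromosome 13. Over all tested genes SCK replicate 1 was the lower in 1654 of 2760.

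**Figure D3:**
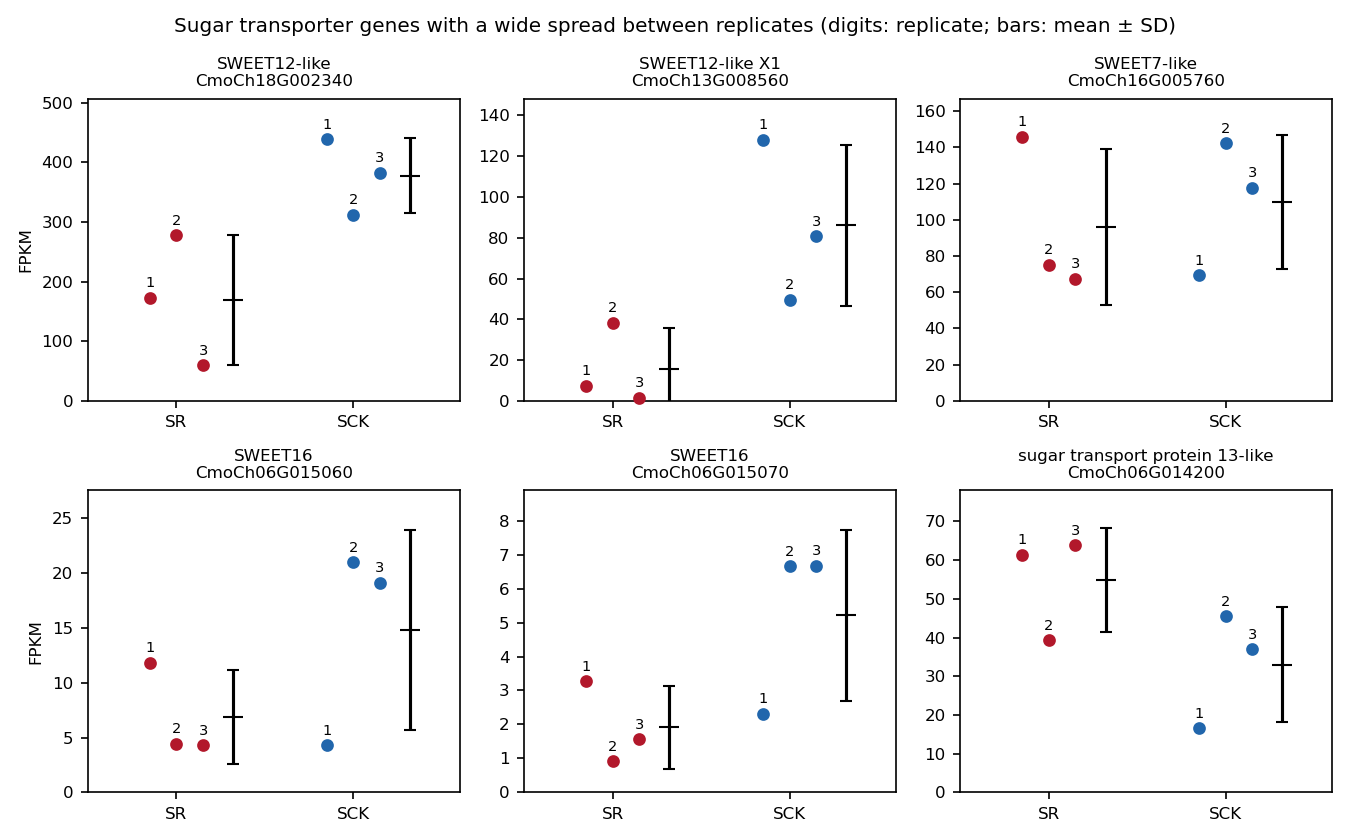
FPKM of 6 sugar transporter genes (vertical axis, one panel each) whose replicates spread widely, in SR and SCK libraries. Digits give the replicate and bars the mean ± SD of 3 libraries, with one lower bar end cut off at 0. SR replicate 3 is lowest and SCK replicate 1 highest in both SWEET12-like panels, while SCK replicate 1 is the lowest SCK library in the other 4 panels.

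Among the 18 SWEET genes not tested, 7 had a count of 0 in every library, among them 2 NEC1-like genes and SWEET9-like, whose namesakes act in nectaries of petunia and Arabidopsis. A pair of low genes, named after their values were seen, had higher levels in all SR libraries. The N3-like gene (CmoCh08G000110) was at 0.657, 1.88 and 1.03 FPKM in SR replicates 1, 2 and 3, against 0.199 and 0.186 FPKM in SCK replicates 1 and 3 and a count of 0 in SCK replicate 2. A SWEET4-like gene (CmoCh02G009250) was at 1.41, 1.99 and 0.589 FPKM in SR replicates 1, 2 and 3, against a count of 0 in SCK replicate 1 and 0.260 and 0.557 FPKM in SCK replicates 2 and 3. Both missed the filter on low values. Tested without that filter, the log2 changes were 2.95 ± 1.03 for the N3-like gene and 2.13 ± 1.11 for the SWEET4-like gene, and neither passed (edgeR, adjusted p = 0.112 and 0.255).

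Sucrose transporters, the proton-coupled carriers of sucrose, had low transcript levels. Of 6 genes 3 were tested. Among all tested genes edgeR called 14.4%, DESeq2 25.6% and limma 14.8%, and 7832 of 23509 had an unadjusted p under 0.05 in edgeR. Of the 3 sucrose transporters edgeR and limma called 0. In edgeR 1 of them had an unadjusted p under 0.05, and DESeq2 called it as a rise. That gene was SUC3 (CmoCh12G006750, chromosome 12, 4526412 to 4532580), at 8.23, 9.12 and 9.79 FPKM in SR replicates 1, 2 and 3, against 6.53, 6.05 and 6.68 FPKM in SCK replicates 1, 2 and 3. Every SR value was above every SCK value. Its log2 change of 0.36 ± 0.12 did not pass (edgeR, adjusted p = 0.0922), and without TMM factors it had adjusted p = 0.0421, in a range of 0.0421 to 0.255 over all alternatives. SUC3-like (CmoCh05G009010) was at 5.61 ± 0.668 FPKM in SR and 4.60 ± 1.02 FPKM in SCK (adjusted p = 0.600). SUC4 (CmoCh12G001830), whose Arabidopsis namesake sits in the tonoplast, was at 1.59 ± 0.420 FPKM in SR and 1.71 ± 0.916 FPKM in SCK (adjusted p = 0.776). The 2 SUC8-like genes stayed below 1 FPKM in every library.

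Sugar transport proteins and hexose carriers take up hexoses at the plasma membrane. Of 15 genes 6 were tested and 2 fell, where 7.16% of all tested genes fell. The HEX6-like hexose carrier (CmoCh16G002260, chromosome 16, 997645 to 1002036) had 2.16, 1.75 and 1.98 FPKM in SR replicates 1, 2 and 3, against 5.52, 4.76 and 5.10 FPKM in SCK replicates 1, 2 and 3. The replicates lay close together and the groups far apart. It fell by 1.52 ± 0.19 (edgeR, adjusted p = 0.0118), and without SCK replicate 3 its log2 change was -1.53 (adjusted p = 0.0749; 4.43e-11 to 0.0830 over all alternatives). The other HEX6-like gene (CmoCh04G003710) missed the filter and was named after its values were seen, so it is no support for this fall. It had 0.107, 0.756 and 0.540 FPKM in SR replicates 1, 2 and 3, against 2.35, 0.817 and 1.96 FPKM in SCK replicates 1, 2 and 3. Its groups barely parted, with a count of 94 in SR replicate 2 and of 74 in SCK replicate 2. Tested without the filter, its log2 change of -2.04 ± 0.70 did not pass (edgeR, adjusted p = 0.106).

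Sugar transport protein 14-like (CmoCh11G006450, chromosome 11, 3087318 to 3089417), whose Arabidopsis namesake carries galactose, had 4.08, 7.81 and 10.2 FPKM in SR replicates 1, 2 and 3, against 17.05, 21.9 and 16.8 FPKM in SCK replicates 1, 2 and 3. All SR libraries were below all SCK libraries. It fell by 1.48 ± 0.31 (edgeR, adjusted p = 0.0264). Leaving out SR replicate 2 lost the call, with a log2 change of -1.51 (adjusted p = 0.0613). So did leaving out SCK replicate 1, 2 or 3, with log2 changes of -1.51, -1.37 and -1.55 (adjusted p = 0.0561, 0.0654 and 0.0917). Over all alternatives the adjusted p ran from 5.29e-05 to 0.105.

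The most abundant of these carriers was not among the calls. Sugar transport protein 13-like (CmoCh06G014200), a proton-coupled hexose carrier in Arabidopsis, held 66.1% of the summed FPKM of the 15 genes. It had 61.4, 39.3 and 63.8 FPKM in SR replicates 1, 2 and 3, against 16.5, 45.5 and 37.1 FPKM in SCK replicates 1, 2 and 3. The groups overlapped, with SCK replicate 1 far below the rest, and the log2 change was 0.62 ± 0.36 (edgeR, adjusted p = 0.280). Without SCK replicate 1 it was 0.31 (adjusted p = 0.463).

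Polyol transporters carry sugar alcohols and, in Arabidopsis, also hexoses and pentoses with protons. Of 14 genes 10 were tested and 3 fell, where 7.16% of all tested genes fell. Fold changes were negative in 8 of the 9 that did not owe their test to SCK levels alone, and in CmoCh11G013140, whose direction the filter set. Over all tested genes 11455 of 23509 were negative. A polyol transporter 5-like gene on chromosome 2 (CmoCh02G004170, 2165307 to 2167288) had 4.39, 6.98 and 7.67 FPKM in SR replicates 1, 2 and 3, against 29.1, 17.4 and 18.9 FPKM in SCK replicates 1, 2 and 3. The lowest SCK library was more than 2 times the highest SR library. It fell by 1.93 ± 0.28 (edgeR, adjusted p = 0.0141), and without SCK replicate 3 its log2 change was -2.04 (adjusted p = 0.0749; 5.15e-09 to 0.0830 over all alternatives).

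Its namesake on chromosome 19 (CmoCh19G006630, 7116083 to 7118040) had 2.75, 4.88 and 3.76 FPKM in SR replicates 1, 2 and 3, against 8.30, 10.2 and 8.52 FPKM in SCK replicates 1, 2 and 3. The groups did not overlap. It fell by 1.39 ± 0.21 (edgeR, adjusted p = 0.0142). Without SR replicate 3 the log2 change was -1.38 (adjusted p = 0.0572) and without SCK replicate 3 it was -1.43 (adjusted p = 0.0764), so either library decides the call. Over all alternatives the adjusted p ran from 1.12e-07 to 0.0874.

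The remaining fall was in a run of 7 polyol transporter genes that follow each other on chromosome 11 between 9003387 and 9089912, with no other gene of the table between them. Putative polyol transporter 2 (CmoCh11G013120), the fourth of the run, had 9.65, 11.3 and 9.04 FPKM in SR replicates 1, 2 and 3, against 16.4, 18.4 and 15.4 FPKM in SCK replicates 1, 2 and 3. The groups did not overlap. It fell by 0.88 ± 0.12 (edgeR, adjusted p = 0.0134), and without SCK replicate 3 its log2 change was -0.95 (adjusted p = 0.0749; 2.69e-07 to 0.0868 over all alternatives). In edgeR the other 5 tested genes of the run did not pass, while DESeq2 also called the second (CmoCh11G013100, adjusted p = 0.0180, against 0.0756 in edgeR) and the sixth, and limma also the sixth. Leaving aside the sixth, whose direction the filter set, the 5 tested genes had log2 changes from -0.36 to -0.88.

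Genes of the run differed in level. The first (CmoCh11G013090), close to the fourth in level, had 16.1, 6.36 and 14.8 FPKM in SR replicates 1, 2 and 3, against 15.8, 14.97 and 17.8 FPKM in SCK replicates 1, 2 and 3. SR replicate 2 alone stood apart, and the gene did not pass, with a log2 change of -0.50 (edgeR, adjusted p = 0.351) and of -0.18 without that library. The sixth (CmoCh11G013140), a short gene model from 9074267 to 9074612, had 0.208 and 0.637 FPKM in SR replicates 1 and 2 and a count of 0 in SR replicate 3, against 2.42, 1.62 and 1.74 FPKM in SCK replicates 1, 2 and 3. It passed the filter only through SCK, so it had to be lower in SR, and its log2 change of -2.81 ± 0.85 did not pass (edgeR, adjusted p = 0.0683; DESeq2, 0.0483; limma, 0.0253; 0.0253 to 0.192 over all alternatives). Without SR replicate 2 the log2 change was -4.14 (adjusted p = 0.0531). The sources do not say how reads shared by near-identical neighbours were counted, which leaves values within the run uncertain.

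**Figure D4:**
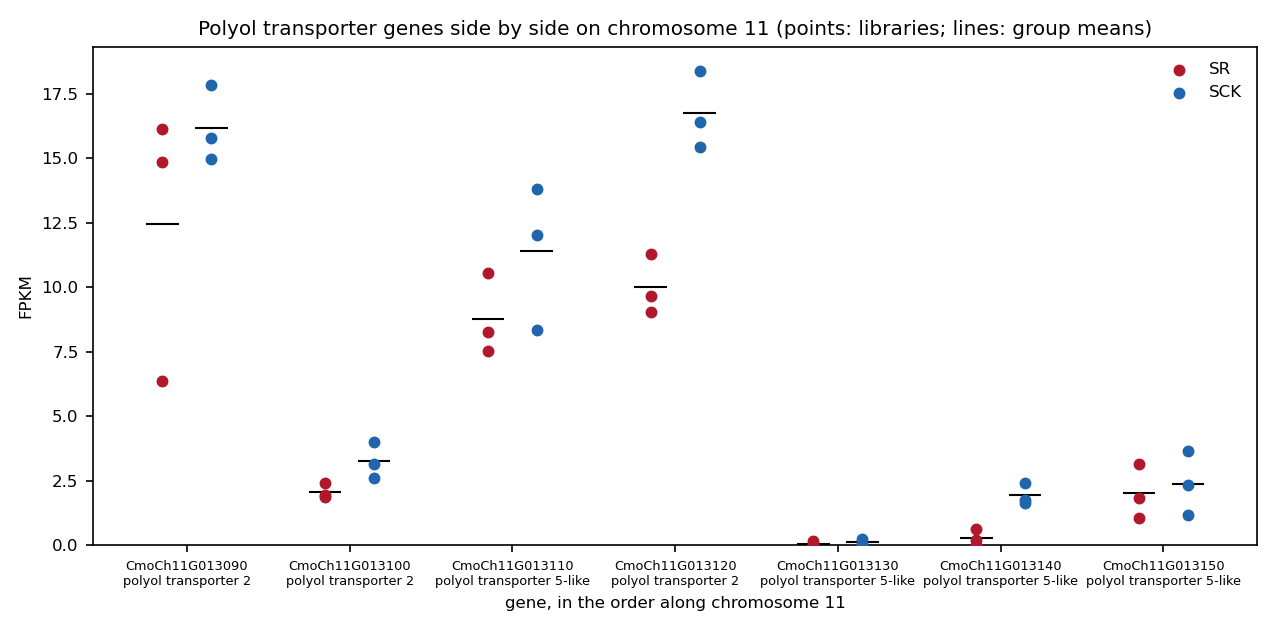
FPKM (vertical axis) of the 7 polyol transporter genes that lie side by side on chromosome 11, in their order along it. Points are libraries, SR to the left of SCK for each gene, and lines are group means. The SR mean is below the SCK mean for each of the 7 genes. The fifth, CmoCh11G013130, was too low to be tested, with means of 0.0517 FPKM in SR and 0.103 FPKM in SCK. The sixth, CmoCh11G013140, passed the filter only through SCK, so it had to be lower in SR. The fourth gene, CmoCh11G013120, was the one called by edgeR. DESeq2 also called the second and sixth, and limma the sixth.

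The 7 genes of that run are part of a wider pattern of position, since 29 of the 81 genes lie directly beside another of them, in 11 runs. The 10 other runs hold 22 genes, of which 6 were tested. None of these was called by edgeR or limma, and DESeq2 called 1, the second SWEET16 gene. Among all tested genes edgeR called 14.4%, limma 14.8% and DESeq2 25.6%, so with 6 genes no lack of calls is read. Of the 6, 3 had an unadjusted p under 0.05 in edgeR, against 7832 of all 23509 tested genes. Whole runs were silent or nearly so, such as the 3 SWEET4-like genes on chromosome 15 between 9279568 and 9285749 and the NEC1-like and SWEET9-like genes on chromosome 12. In others 1 gene carried the transcript: beside sugar transport protein 13-like on chromosome 6, its neighbour (CmoCh06G014190) had a count of 0 in every library.

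Of 5 tonoplast monosaccharide transporters, named monosaccharide-sensing protein 2-like in the table, 4 were tested. All 4 had positive fold changes, from 0.50 to 0.998, as had 12054 of all 23509 tested genes. Against a share of 7.2% rises among all tested genes, 1 of the 4 rose. That gene (CmoCh20G007070, chromosome 20, 3491198 to 3494493) had 4.18, 6.12 and 4.79 FPKM in SR replicates 1, 2 and 3, against 2.70, 3.09 and 2.91 FPKM in SCK replicates 1, 2 and 3. The groups did not overlap. It rose by 0.65 ± 0.16 (edgeR, adjusted p = 0.0427). Leaving out SR replicate 2 or 3 lost the call, with log2 changes of 0.51 and 0.68 (adjusted p = 0.0958 and 0.112). So did leaving out SCK replicate 1, 2 or 3, with log2 changes of 0.63, 0.68 and 0.64 (adjusted p = 0.0967, 0.0879 and 0.150). Over all alternatives the adjusted p ran from 0.00481 to 0.153.

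The gene with the largest fold change of the 4 (CmoCh12G006260) had 9.18, 15.04 and 14.9 FPKM in SR replicates 1, 2 and 3, against 3.66, 8.08 and 6.12 FPKM in SCK replicates 1, 2 and 3. All SR values were higher. Its log2 change of 0.998 ± 0.29 did not pass (edgeR, adjusted p = 0.0632; DESeq2, 0.00925), and without SR replicate 1, the lowest SR library, it was 1.17 (adjusted p = 0.0491). Over all alternatives the adjusted p ran from 0.00925 to 0.179. The most abundant gene of this subfamily (CmoCh05G009850) was at 12.4 ± 3.59 FPKM in SR and 7.92 ± 1.16 FPKM in SCK with overlapping groups and a log2 change of 0.50 (edgeR, adjusted p = 0.137). Without SR replicate 1 it was 0.68 (adjusted p = 0.0363; 0.0363 to 0.315 over all alternatives). That gene overlaps a chloroplast envelope pore protein gene on the opposite strand, and the sources do not say whether counting used strand. The 4 values come from the same libraries and are no independent evidence of a shared change.

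Of 9 ERD6-like transporter genes 7 were tested, and none was called by edgeR, DESeq2 or limma. Among all tested genes edgeR called 14.4%, DESeq2 25.6% and limma 14.8%. With 7 tested genes no lack of calls is read from this. Of the 7, 1 had an unadjusted p under 0.05 in edgeR, against 7832 of all 23509 tested genes. The log2 changes of the 7 ran from -0.45 to 0.26. ERD6-like 6 (CmoCh12G004190), whose Arabidopsis namesake exports glucose from the vacuole, was at 15.9 ± 1.37 FPKM in SR and 13.1 ± 1.88 FPKM in SCK, with overlapping groups (log2 change 0.15 ± 0.12, adjusted p = 0.428). ERD6-like 16 (CmoCh17G002820) was at 8.53 ± 1.67 FPKM in SR and 10.6 ± 2.07 FPKM in SCK (-0.45 ± 0.18, adjusted p = 0.126). Their median log2 change was -0.06 with TMM factors and 0.08 without, so no direction is given for this subfamily. Protein SWEETIE (CmoCh15G001970) was at 5.70 ± 0.509 FPKM in SR and 5.39 ± 0.779 FPKM in SCK (adjusted p = 0.794).

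Summed over each subfamily, the make-up of the transporter transcripts differed between the groups, but single genes weighed heavily in some sums. The SWEET genes summed to 421, 482 and 230 FPKM in SR replicates 1, 2 and 3, against 706, 618 and 684 FPKM in SCK replicates 1, 2 and 3. They held 65.8%, 66.5% and 46.3% of the summed FPKM of all 81 genes in SR replicates 1, 2 and 3, against 75.3%, 69.7% and 73.2% in SCK replicates 1, 2 and 3. The mean share was 59.5% in SR and 72.7% in SCK, and without SR replicate 3 the SR mean was 66.1%. SWEET12-like on chromosome 18 alone gave 52.3% of the SWEET sum. Without it, the other SWEET genes summed to 248, 205 and 170 FPKM in SR replicates 1, 2 and 3. In SCK replicates 1, 2 and 3 they summed to 267, 306 and 302 FPKM. Of these sums, the SWEET12-like gene CmoCh13G008560 held 15.8 ± 19.7 FPKM in SR and 86.1 ± 39.5 FPKM in SCK. A sum without both genes was not made. EdgeR called neither gene, and no fall of the SWEET subfamily as a whole is read from its sum.

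The polyol transporters summed to 53.6, 56.7 and 59.2 FPKM in SR replicates 1, 2 and 3, against 102, 86.5 and 89.8 FPKM in SCK replicates 1, 2 and 3. Their replicates lay close together, with 56.5 ± 2.82 FPKM in SR and 92.9 ± 8.42 FPKM in SCK. These sums include the 3 called falls, CmoCh02G004170, CmoCh11G013120 and CmoCh19G006630. Their means were 6.35, 9.99 and 3.80 FPKM in SR, against 21.8, 16.7 and 8.99 FPKM in SCK. The tonoplast monosaccharide transporters summed to 27.4, 46.8 and 44.8 FPKM in SR replicates 1, 2 and 3, against 20.01, 23.9 and 23.2 FPKM in SCK replicates 1, 2 and 3. Sums of these 3 subfamilies did not overlap between the groups, nor did those of sucrose transporters, at 16.98 ± 1.21 FPKM in SR and 13.4 ± 1.62 FPKM in SCK. Sums of STP and hexose carriers (69.8 ± 13.4 FPKM in SR, 63.1 ± 16.1 FPKM in SCK) and of ERD6-like genes (54.1 ± 9.29 FPKM in SR, 53.3 ± 6.59 FPKM in SCK) overlapped. Without sugar transport protein 13-like, the other STP and hexose carriers summed to 14.98 ± 2.98 FPKM in SR and 30.1 ± 2.09 FPKM in SCK, with no overlap. These sums include the called falls. Sugar transport protein 14-like had means of 7.36 FPKM in SR and 18.6 FPKM in SCK. The called HEX6-like gene had means of 1.96 FPKM in SR and 5.13 FPKM in SCK. No fall of the carriers beyond the called genes is read from the sum. Without SUC3, the other sucrose transporters summed to 7.93 ± 0.560 FPKM in SR and 7.01 ± 1.84 FPKM in SCK and overlapped. Sums were not tested. They carry no TMM scaling, which would bring the SR sums of sucrose and tonoplast monosaccharide transporters closer to those of SCK.

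**Figure D5:**
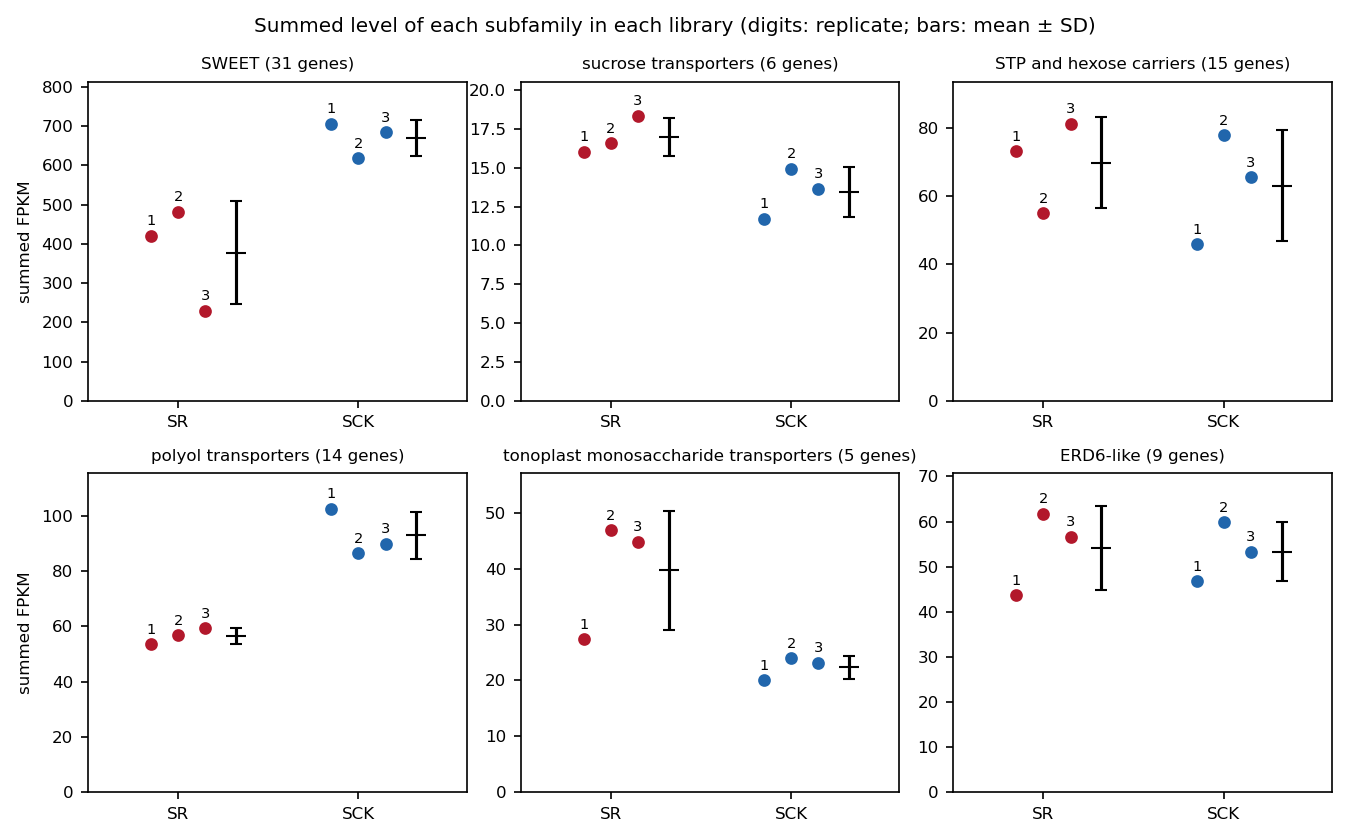
Summed FPKM of each subfamily, without TMM scaling (vertical axis, one panel each, with its number of genes), in SR and SCK libraries. Digits give the replicate and bars the mean ± SD of 3 libraries. SR lies below SCK for SWEET genes and polyol transporters and above it for sucrose and tonoplast monosaccharide transporters, and the groups overlap for the other 2 subfamilies.

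Other carriers of the same kinds fall outside the name rule. A list of 24 sugar carrier, inositol, plastidic glucose and xylose transporter genes, drawn up after the product names were read, had 16 tested genes, of which 1 rose and 4 fell, where 7.2% of all tested genes rose and 7.16% fell. DESeq2 called 1 rise and 5 falls among them, and limma 1 rise and 3 falls. A sugar carrier protein C-like gene (CmoCh07G002700), of the same family as the sugar transport proteins, had 116, 80.3 and 108 FPKM in SR replicates 1, 2 and 3, against 35.5, 50.6 and 45.4 FPKM in SCK replicates 1, 2 and 3, and rose by 1.08 ± 0.20 (edgeR, adjusted p = 0.0196). Sugar carrier protein C on chromosome 18 (CmoCh18G003190) was at 5.62 FPKM in SR and 17.2 FPKM in SCK as means and fell by 1.77 ± 0.33 (edgeR, adjusted p = 0.0202). The other falls were a neighbouring sugar carrier protein C-like gene, inositol transporter 1 and plastidic glucose transporter 4. Without SCK replicate 3 edgeR called none of the 5 (adjusted p between 0.0892 and 0.0958), while 5 of 5 kept their direction and their log2 changes moved by at most 0.24.

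Enzymes that make and use the transported sugars were read beside the carriers, against the same shares of 7.2% rises and 7.16% falls among all tested genes. Of 8 sucrose synthases, which split sucrose in sink tissue, 3 rose, led by sucrose synthase 6-like (CmoCh13G011580, log2 change 1.40 ± 0.21, edgeR adjusted p = 0.0142). A gene named sucrose synthase (CmoCh11G007680) rose by 2.64 ± 0.47 (edgeR, adjusted p = 0.0190). With all SCK values under 1 FPKM, it passed the filter only through SR, so it had to be higher in SR. The most abundant, sucrose synthase 5-like (CmoCh04G023740, named after its values were seen), was at 176 ± 47.4 FPKM in SR and 168 ± 59.7 FPKM in SCK (edgeR, adjusted p = 0.927). Sums of the 8 genes overlapped, at 181 to 290 FPKM in SR and 128 to 253 FPKM in SCK. Of 14 invertases, which also split sucrose, 1 rose, the alkaline/neutral invertase B gene (CmoCh11G017230, 0.84 ± 0.19, edgeR adjusted p = 0.0325); next by p came neutral/alkaline invertase 3 (CmoCh04G014990, 0.78 ± 0.22, adjusted p = 0.0555). Of 3 invertase inhibitor genes 1 rose (CmoCh08G009370, 2.74 ± 0.42, edgeR adjusted p = 0.0144). It had counts of only 22, 11 and 13 in SCK replicates 1, 2 and 3, all under 1 FPKM. This gene too passed the filter only through SR, so it had to be higher in SR. DESeq2 called 3 rises among the sucrose synthases, 3 rises and 1 fall among the invertases and 1 rise among the inhibitors, and limma called 3, 2 and 1 rises in these lists with 0 falls.

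Among 7 sucrose-phosphate synthase and phosphatase genes, which make sucrose, 2 rose and 1 fell, all named sucrose-phosphate synthase 1. The first rise (CmoCh09G004510) was of 0.81 ± 0.14 and the fall (CmoCh10G005520) of 0.72 ± 0.13 on the log2 scale (edgeR, adjusted p = 0.0178 and 0.0190). Among 11 enzymes of raffinose and stachyose metabolism 2 rose and 1 fell. Stachyose synthase-like (CmoCh08G004690) rose by 1.51 ± 0.18 and a galactinol synthase 2-like gene (CmoCh08G012600) fell by 0.94 ± 0.21 (edgeR, adjusted p = 0.0113 and 0.0301), while another galactinol synthase 2-like gene (CmoCh10G012500) rose by 1.04 ± 0.25 (edgeR, adjusted p = 0.0370). Of 17 hexokinases and fructokinases 1 rose, hexokinase-2 (CmoCh09G001010, 1.12 ± 0.21, edgeR adjusted p = 0.0201). DESeq2 called 2 rises and 1 fall among the sucrose-phosphate enzymes, 2 rises and 1 fall among the raffinose enzymes and 3 rises among the kinases. Limma called 2 rises and 0 falls, 2 rises and 1 fall, and 1 rise in these lists. Of 3 plasma membrane proton pumps, which power the symporters, edgeR, DESeq2 and limma each called 0, with 0 at an unadjusted p under 0.05 in edgeR. Over all 23509 tested genes 7832 had such a p, and edgeR called 14.4%, DESeq2 25.6% and limma 14.8%. With 3 genes no lack of calls is read. These enzyme lists and the carriers outside the name rule held 17 calls. Leaving out SR replicate 1, 2 or 3 kept 15, 11 or 4 of them in edgeR, and leaving out SCK replicate 1, 2 or 3 kept 9, 8 or 0. Without SCK replicate 3 the 12 called enzyme and inhibitor genes had adjusted p between 0.0749 and 0.141 in edgeR. All 12 kept their direction, which the filter had set in CmoCh11G007680 and CmoCh08G009370, and their log2 changes moved by at most 0.20.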

How the data were processed

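Poly(A) RNA of 6 hypocotyl libraries, 3 SR and 3 SCK, was sequenced from stranded paired-end libraries, per the labels' protocols. The file headers show that the authors deposited a count column and an FPKM column per library, with 32205 genes. HISAT and StringTie are named per the submitters' processing notes; their versions, the genome build, the annotation and the use of strand are not stated there. Deposited FPKM is 0.0001 where the count is 0. The count 4 occurred 1350 times, against 567 for 3 and 516 for 5, so a read pair may be worth about 4 counts. A further 6 columns match no sample and were not used.

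Counts were tested with edgeR 4.0.16 (glmQLFit, glmQLFTest, TMM factors, R 4.3.3) over 23509 genes with at least 1 FPKM in at least 3 libraries, SR against SCK, with Benjamini-Hochberg adjustment and a threshold of 0.05. DESeq2 1.42.0 and limma 3.58.1 on log2(FPKM + 1) were alternatives, and the functions were tested on simulated data. Each SE is the size of the log2 change divided by the square root of F. Called genes had counts of 52 to 3376 per library. Subfamilies and related lists are patterns on product names; the patterns for SWEET, SWEETIE, invertases, hexokinases and phloem were corrected, and 2 lists added, after the names were read. Genes are named when called, when the log2 change is at least 1 in size, when among the 2 most abundant of a subfamily, or when first by p in it; others are said to be chosen later. Members and lists were chosen with earlier results of these data known. Sequences of the genes were not used here. The chi-square per gene between replicates, taken on the counts as deposited, ran from 7.95 (SCK replicates 2 and 3) to 57.1; a read pair worth several counts would raise it.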

Additional observations from a re-analysis of the deposited data

How the results depend on the processing

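The 8 calls among the 44 tested transporters (2 rises, 6 falls) depended on the test and on single libraries. DESeq2 called 14 (4 rises, 10 falls). Leaving out 1 library in turn gave 0 to 10 calls (0 to 4 rises and 0 to 7 falls) in edgeR, with 0 only without SCK replicate 3; there DESeq2 called 8 with 1 rise, and limma called 0, with 0 rises and 0 falls. These last 2 settings were chosen after seeing the data. Without the filter on low values, with 29117 genes tested, 1 rise was called. With the replicate number of the titles as a block, edgeR called 0 of 44 members and 0 of all 23509 genes, with 16 and 6564 at an unadjusted p under 0.05. The labels do not say that numbers pair libraries, and the deviations of same-numbered libraries correlated at -0.15, -0.27 and 0.08, so the numbers were not taken as pairs. No TMM factors, RLE factors, a count minimum of 10, counts divided by 4 and limma on all libraries gave 8 or 9 calls. No named gene changed sign past the threshold in any setting. The log2 ratio of the polyol sum was -0.72, and -0.85 with TMM-scaled FPKM. TMM factors were 1.01 to 1.08 in SR libraries and 0.926 to 0.976 in SCK libraries, so the scaling lowers each SR sum against SCK. It narrows the difference in the sucrose and tonoplast monosaccharide transporter sums, which were higher in SR. Without the most abundant gene, the ratio of the sucrose transporter sum was 0.18 (0.34 with it), that of STP and hexose carriers -1.005 (0.15 with it), and that of all 81 genes -0.27 (-0.57 with it). The filter left 37 of the 81 genes untested; with a count minimum of 10 in its place 58 of the 81 were tested, and with no filter 67.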
